A study of Mus musculus with 16 samples.

Results

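The MHC class II presentation genes are a set of 10 mouse genes, H2-Aa, H2-Ab1, H2-Eb1, H2-DMa, H2-DMb1, H2-DMb2, H2-Oa, H2-Ob, Cd74 and Ciita, picked out in the table by symbol. All 10 were found among the 55414 genes of the count table by their Ensembl identifiers, and all 10 passed the filter on low counts that kept 16126 genes for testing. They were followed in RNA from kidney cortex of C57BL/6J wild-type males, whose ages the labels do not give. The sedentary group had 4 libraries, and 4 libraries each came from mice made to run on a treadmill for 40 minutes at 70% capacity over 24 h, 1 wk or 2 wk. The question was how the expression of these genes differed from sedentary kidney with each length of training. The label 24 h leaves it unclear whether the mice were killed within a day of running or a day after it, and the titles carry a letter, F for every exercised library and G for every sedentary one, that no label explains and that cannot be told apart from exercise.

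MHC class II molecules are surface proteins, each an alpha and a beta chain, that show peptides from taken-up proteins to CD4+ T cells. In the endoplasmic reticulum the chains bind the invariant chain, encoded by Cd74. In endosomes the invariant chain is cut down to a short remnant, and the H2-M dimer (H2-DMa with a beta chain from H2-DMb1 or H2-DMb2) exchanges that remnant for peptide, a step that the H2-O dimer (H2-Oa with H2-Ob) restrains. Transcription of the other members is switched on by Ciita, the class II transactivator. The Ciita protein binds no DNA itself and docks on factors held at the X and Y boxes of their promoters. In the kidney the main carriers of class II are dendritic cells and macrophages lying between the tubules, together with B cells where present, and other cells can gain it after interferon-gamma. C57BL/6 mice carry the H2-b haplotype, in which the alpha chain partner of H2-Eb1 is not made.

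The 16 libraries held 39766260 to 66852397 counts assigned to genes, and the 10 members together took 0.0427% to 0.0907% of them. Proximal tubule markers summed to 41890 to 56930 CPM (counts as a rate per library, after trimmed-mean normalization of library sizes) and podocyte markers to 178.6 to 299.2 CPM, with no marker of either list at 0, as a check of the labelled tissue. Over all genes, edgeR called 2 genes in 2 wk against 24 h, both also called for any difference among the 4 groups, and 0 in each of the other 5 comparisons. These 2, named here because of their result, were Asns, an asparagine synthesis enzyme (log2 fold change -1.31), and Atf5, a stress-induced transcription factor (-0.63), and neither is a member. Leaving out 1 library at a time, this count ran from 0 (without the second 2 wk library) to 7 (without the second 24 h library).

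The promoters of the members are shown first, because Ciita acts at the X and Y boxes of class II promoters. RefSeq windows from 250 bases before to 50 bases after the start (GRCm38.p6) were given for 7 members, of which H2-DMa has 2 starts. The 6 stretches below run 5′ to 3′ on the gene's strand from 125 to 36 bases before the start, with capitals marking the Y box core GATTGG and the X box core ACNGATG. They lie at chr17:34305742-34305831 for H2-Eb1, chr17:34153066-34153155 for H2-DMb1, chr17:34145124-34145213 for H2-DMb2, chr17:34287859-34287948 (minus strand) for H2-Aa, chr17:34238780-34238869 for H2-Ob and chr17:34092254-34092343 for H2-Oa, the others being on the plus strand.
H2-Eb1: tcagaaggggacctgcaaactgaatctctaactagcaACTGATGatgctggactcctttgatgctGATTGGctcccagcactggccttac
H2-DMb1: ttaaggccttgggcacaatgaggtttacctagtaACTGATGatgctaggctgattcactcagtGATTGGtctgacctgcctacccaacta
H2-DMb2: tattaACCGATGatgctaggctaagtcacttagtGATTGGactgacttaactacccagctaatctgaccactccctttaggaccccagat
H2-Aa: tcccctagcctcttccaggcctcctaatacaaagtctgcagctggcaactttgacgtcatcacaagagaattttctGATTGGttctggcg
H2-Ob: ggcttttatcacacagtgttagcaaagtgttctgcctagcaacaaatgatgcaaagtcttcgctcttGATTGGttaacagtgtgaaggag
H2-Oa: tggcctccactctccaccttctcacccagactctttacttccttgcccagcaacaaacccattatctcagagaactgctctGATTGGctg

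GATTGG on the gene's strand stood 44 to 91 bases before the start in each of these 6 members, at 49 bases in H2-Aa, 60 in H2-Eb1, 62 in H2-DMb1, 91 in H2-DMb2, 44 in H2-Oa and 58 in H2-Ob. Of all 32851 RefSeq windows of the same length, 3.32% held GATTGG on the gene's strand between 40 and 100 bases before the start. On either strand and anywhere in the window it was in 16.1% of all windows and in the windows of 7 of 7 members, H2-DMa having it 199 bases before its second start. ACNGATG on either strand was in 9.85% of all windows and in those of 5 of 7 members. Both motifs were searched on both strands, and in the members no match of one overlapped a match of the other. ACNGATG began 28 bases before GATTGG in H2-Eb1 and 29 bases before it in both H2-DMb1 and H2-DMb2, and 93 bases before it in H2-Oa. Only 10 of the 32851 windows, 0.0304%, held the 2 motifs on the gene's strand at a spacing of 15 to 40 bases. Their genes were H2-Eb1, H2-DMb1, H2-DMb2, the class II gene H2-Eb2, and BC051142, Bpifb4, Olfr967, Pfkfb1, Scaper and Scgb2b20. The motifs and the spacing were chosen after these sequences had been read, and a match describes letters, not occupancy. Only these exact letters were searched. A stretch without a match is therefore not shown to lack the box, and a match is not shown to be a working one.

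**Figure D1:**
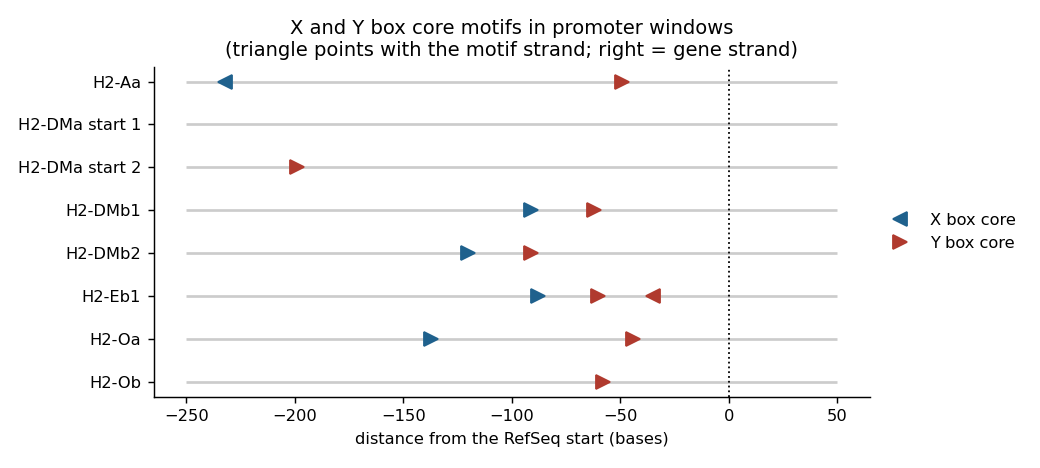
Positions of exact matches to the X box core letters ACNGATG and the Y box core letters GATTGG in the 8 RefSeq promoter windows of 7 members, as distance in bases from the start (dotted line at 0). Boxes of other letters are not marked. Triangles pointing right lie on the gene's strand. The Y box core stands 44 to 91 bases before the start in 6 of 7 members, and the X box core lies 28 or 29 bases upstream of it in H2-Eb1, H2-DMb1 and H2-DMb2.

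In sedentary cortex the invariant chain and the classical chains were the most abundant members and the H2-O genes and Ciita the least. On the scale of CPM per kilobase of the principal transcript, Cd74 was highest at 188.1 ± 29.6 (SD, n = 4), followed by the classical chains H2-Ab1 at 121 ± 13.5, H2-Aa at 85.04 ± 8.30 and H2-Eb1 at 65.8 ± 7.57. The H2-M genes came next, H2-DMb1 at 14.7 ± 1.87, H2-DMa at 6.51 ± 0.347 and H2-DMb2 at 1.13 ± 0.129. Lowest were H2-Oa at 0.661 ± 0.189, Ciita at 0.593 ± 0.102 and H2-Ob at 0.357 ± 0.126. Of the neighbours in this order, H2-Oa and Ciita overlapped in mean ± SD, and the others did not. H2-Aa and H2-Eb1 traded places when the length of all annotated exons was used in place of the transcript. Raw counts per library ran from 8191 to 20506 for Cd74 but only from 11 to 81 for H2-Ob, 20 to 69 for H2-Oa and 31 to 107 for H2-DMb2. Counting alone would give a coefficient of variation of 14.6% for H2-Ob in the sedentary group, where 35.4% was seen, and 0.870% for Cd74, where 15.8% was seen.

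Other class II genes were near or at 0. H2-Ea-ps, the E alpha gene, had 0 counts in all 16 libraries, which allows up to 0.0449 to 0.0754 CPM (3 counts) depending on the library. H2-Eb2, a neighbour of H2-Eb1, had at most 11 counts in a library and was not tested. Intervals and floors of this kind cover counting error only.

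The classical chains H2-Ab1, H2-Aa and H2-Eb1 were lower on average after 1 wk and 2 wk than in sedentary cortex (0.72 to 0.76 of the sedentary level), without passing the test. H2-Ab1 (ENSMUSG00000073421, chr17:34257689-34269419, plus strand), the A beta chain, measured 164, 125, 153 and 144 CPM in the sedentary libraries and 174, 119, 177 and 136 CPM at 24 h. It measured 104, 97.1, 146 and 99.3 CPM at 1 wk and 107, 118, 108 and 105 CPM at 2 wk. All 4 libraries at 2 wk lay below all 4 sedentary ones, while at 1 wk the third library lay within the sedentary range and the other 3 below it. At 24 h the libraries spread wider than the sedentary ones, the first and the third above all 4 and the second below all 4. The log2 fold change against sedentary was 0.05 ± 0.14 (SE, 4 libraries a group) at 24 h, -0.39 ± 0.14 at 1 wk and -0.42 ± 0.14 at 2 wk, with edgeR adjusted p-values of 0.947, 0.658 and 0.429. The 95% interval at 2 wk ran from -0.71 to -0.13 on the log2 scale. RNA from bulk tissue cannot tell fewer cells of a type from less RNA per cell, here and in every comparison that follows.

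H2-Aa (ENSMUSG00000036594, chr17:34282744-34287823, minus strand), the A alpha chain that pairs with H2-Ab1, measured 108, 85.5, 98.2 and 92.4 CPM in sedentary cortex. It measured 119.5, 72.9, 139 and 82.0 CPM at 24 h, 62.0, 59.4, 93.9 and 62.4 CPM at 1 wk, and 72.6, 70.6, 62.3 and 72.9 CPM at 2 wk. The high and low libraries were like those of H2-Ab1: the first and the third libraries were the high ones at 24 h, the third was alone within the sedentary range at 1 wk, and none reached it at 2 wk. Its log2 fold change against sedentary was 0.11 ± 0.17 at 24 h, -0.47 ± 0.17 at 1 wk and -0.46 ± 0.17 at 2 wk (edgeR adjusted p = 0.896, 0.673 and 0.562).

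H2-Eb1 (ENSMUSG00000060586, chr17:34305867-34316674, plus strand), the E beta chain, measured 125, 96.3, 114 and 103.5 CPM in sedentary cortex and 137, 91.2, 159 and 103 CPM at 24 h. At 1 wk it measured 73.6, 67.1, 117.5 and 70.6 CPM, and at 2 wk 84.98, 77.7, 76.5 and 85.3 CPM. It too had all 4 libraries at 2 wk below the sedentary ones and the third library at 1 wk among them. Its log2 fold change against sedentary was 0.16 ± 0.17 at 24 h, -0.42 ± 0.17 at 1 wk and -0.44 ± 0.17 at 2 wk (edgeR adjusted p = 0.832, 0.755 and 0.580). H2-Eb1 was therefore read in every library, while its partner gene H2-Ea-ps had no count in any.

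**Figure D2:**
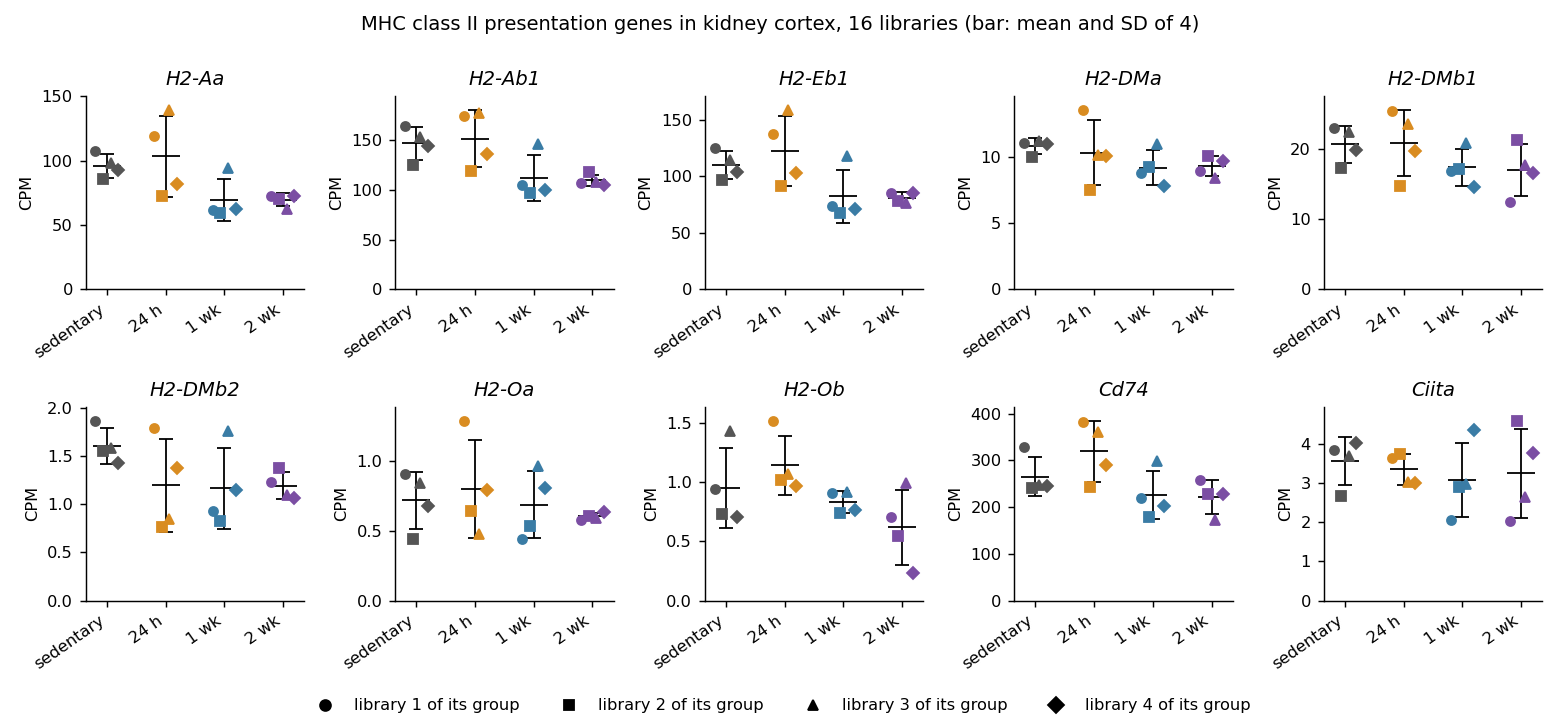
CPM of each of the 10 members in the 16 libraries, grouped as sedentary, 24 h, 1 wk and 2 wk on the horizontal axis. Each marker is 1 library, with its shape giving the library's number, and the bars are the mean and SD of 4. In H2-Aa, H2-Ab1 and H2-Eb1 the 2 wk libraries all lie below the sedentary ones, and the third 1 wk library (triangle) stands above the other 3 of its group.

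Cd74 (ENSMUSG00000024610, chr18:60803848-60812652, plus strand), the invariant chain, was the most abundant member, and its log2 fold changes had the signs of those of the chains. It measured 328, 241, 248 and 244 CPM in sedentary cortex and 383, 243, 362 and 290 CPM at 24 h. At 1 wk it measured 220.3, 179, 298 and 203 CPM, and at 2 wk 259, 228, 173 and 228.5 CPM. The groups overlapped in every comparison, and the first sedentary library stood apart from the other 3. The log2 fold change against sedentary was 0.27 ± 0.17 at 24 h, -0.24 ± 0.17 at 1 wk and -0.26 ± 0.17 at 2 wk (edgeR adjusted p = 0.665, 0.923 and 0.737). Against 24 h it was -0.51 ± 0.17 at 1 wk and -0.52 ± 0.17 at 2 wk (edgeR adjusted p = 0.410 and 0.390).

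The peptide exchange genes H2-DMa and H2-DMb1 had log2 fold changes between -0.28 and 0.01 against sedentary, nearer 0 at 1 wk and 2 wk than those of the chains, and this difference between genes was not tested. H2-DMa (ENSMUSG00000037649, chr17:34119541-34139101, plus strand), the alpha chain of H2-M, measured 9.94 to 11.2 CPM in the sedentary libraries, 7.51 to 13.5 at 24 h, 7.78 to 10.9 at 1 wk and 8.41 to 10.1 at 2 wk. Its log2 fold change against sedentary was -0.07 ± 0.14, -0.24 ± 0.14 and -0.22 ± 0.14 at the 3 times (edgeR adjusted p = 0.925, 0.910 and 0.739). H2-DMb1 (ENSMUSG00000079547, chr17:34153072-34160230, plus strand), a beta chain of H2-M, measured 17.3 to 23.1 CPM in sedentary cortex, 14.7 to 25.4 at 24 h, 14.6 to 20.96 at 1 wk and 12.4 to 21.3 at 2 wk, and the groups overlapped. Its log2 fold change was 0.01 ± 0.17, -0.25 ± 0.17 and -0.28 ± 0.17 (edgeR adjusted p = 0.987, 0.918 and 0.725).

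H2-DMb2 (ENSMUSG00000037548, chr17:34143307-34151555, plus strand), a second beta chain gene, is a close copy of H2-DMb1. Their principal transcripts were 93.9% identical over 1255 aligned bases, with 1 identical run of 221 bases, and 26.8% of the 50-base words of the H2-DMb2 transcript also occur in that of H2-DMb1. How the authors' counting treated reads that match both is not given, so both genes' values are uncertain. H2-DMb2 measured 1.87, 1.56, 1.58 and 1.43 CPM in sedentary cortex, 1.79, 0.769, 0.847 and 1.38 at 24 h, 0.932, 0.824, 1.76 and 1.15 at 1 wk, and 1.24, 1.38, 1.099 and 1.07 at 2 wk. The 2 wk libraries all lay below the sedentary ones, and the other exercised groups overlapped them. Against sedentary the log2 fold change was -0.42 ± 0.26 at 24 h, -0.47 ± 0.26 at 1 wk and -0.43 ± 0.26 at 2 wk (edgeR adjusted p = 0.669, 0.889 and 0.727).

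The H2-O genes, which restrain H2-M and are known from B cells and some dendritic cells, were near 1 CPM and scattered most. H2-Oa (ENSMUSG00000024334, chr17:34092340-34095234, plus strand), the alpha chain, measured 0.445 to 0.907 CPM in sedentary cortex, 0.478 to 1.29 at 24 h, 0.444 to 0.970 at 1 wk and 0.582 to 0.640 at 2 wk, where the 4 libraries were closest together. Its log2 fold change against sedentary was 0.16 ± 0.31, -0.08 ± 0.31 and -0.25 ± 0.31 (edgeR adjusted p = 0.916, 0.990 and 0.870). H2-Ob (ENSMUSG00000041538, chr17:34238903-34254414, plus strand), the beta chain, measured 0.941, 0.734, 1.43 and 0.704 CPM in sedentary cortex, 1.51, 1.02, 1.06 and 0.968 at 24 h, 0.910, 0.742, 0.919 and 0.766 at 1 wk, and 0.703, 0.548, 0.993 and 0.235 at 2 wk. Its lowest value, in the fourth 2 wk library, came from 11 counts. All 4 libraries at 1 wk lay below all 4 at 24 h, and its log2 fold change of 2 wk against 24 h, -0.89 ± 0.32 (edgeR adjusted p = 0.423), had the greatest size of any member in the 6 comparisons.

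Ciita (ENSMUSG00000022504, chr16:10480059-10528418, plus strand), the transactivator of the others, overlapped between sedentary and exercised groups at every time. It measured 3.85, 2.67, 3.69 and 4.03 CPM in sedentary cortex, 3.64, 3.74, 3.02 and 3.01 at 24 h, 2.06, 2.91, 2.99 and 4.35 at 1 wk, and 2.04, 4.58, 2.64 and 3.76 at 2 wk. The highest and lowest of the 16 values were both at 2 wk. Its log2 fold change against sedentary was -0.09 ± 0.23, -0.21 ± 0.23 and -0.12 ± 0.23 (edgeR adjusted p = 0.938, 0.939 and 0.928). The 95% interval at 2 wk, from -0.61 to 0.36, includes the size of difference measured for H2-Ab1, so that these data do not separate them.

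Across the members, 0 of 10 passed edgeR's test in any of the 6 comparisons or for any difference among the 4 groups, and DESeq2 and limma-voom called 0 of 10 as well. At 24 h against sedentary, 7 members had a positive and 3 a negative log2 fold change, with a median of 0.08 against -0.0046 over all genes tested. Of all genes 51% were negative. No member had an unadjusted edgeR p-value under 0.05, which 8.92% of all genes had. None lay wholly below the sedentary libraries, as 3.66% of all genes did. None lay wholly above them either, for which no share over all genes is given. edgeR called 0% of all genes, DESeq2 86 genes and limma-voom 49. The median rests on single libraries: without the first 24 h library it was -0.06, without the second 0.20, without the third -0.04, and without the second sedentary library -0.01. It was 0.14 without the first sedentary library and also without the fourth 24 h one. Without both the first and the third 24 h libraries, the high ones, it was -0.19.

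At 1 wk against sedentary all 10 members were negative, and 48.9% of all genes were. The members' median was -0.24, against 0.0039 over all genes. Unadjusted edgeR p-values were under 0.05 for 3 members, the classical chains (6.05% of all genes), 0 members had all libraries below the sedentary ones (2.51% of all genes), and 0% of all genes were called by edgeR, against 15 genes by DESeq2 and 6 by limma-voom. Without the third 1 wk library the median was -0.37.

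At 2 wk against sedentary all 10 were again negative, with a median of -0.35 against 0.0084 over all genes. Of all genes 47.9% were negative. The 3 classical chains had unadjusted edgeR p-values under 0.05 (7.26% of all genes). With H2-DMb2 they also made up the 4 members whose 2 wk libraries all lay below all sedentary ones (2.61% of all genes). edgeR called 0% of all genes in this comparison, DESeq2 34 genes and limma-voom 6. The 3 chains varied together from library to library, as given below, so that they are not 3 separate observations.

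The 3 comparisons above share the sedentary libraries, and the next 2 share those at 24 h, so they are not independent of each other. At 1 wk against 24 h all 10 members were negative (45.6% of all genes), with a median of -0.35 against 0.015 over all genes. The classical chains and Cd74, 4 members, had unadjusted edgeR p-values under 0.05 (7.15% of all genes), 1 member, H2-Ob, had no overlap (1.85%), and 0% of all genes were called by edgeR, against 59 genes by DESeq2 and 0 by limma-voom. At 2 wk against 24 h all 10 were negative (47.8% of all genes), with a median of -0.44 against 0.011. Here 5 members, the classical chains, Cd74 and H2-Ob, had unadjusted edgeR p-values under 0.05 (9.61% of all genes), 3 members, the chains, had no overlap (1.56%), and 0.0124% of all genes were called. Without the first 24 h library the medians were -0.22 at 1 wk and -0.29 at 2 wk. Between 2 wk and 1 wk 6 members were negative and 4 positive (median -0.02 against 0.0094), and 47.7% of all genes were negative. Of the members 0 had an unadjusted edgeR p-value under 0.05 (4.58% of all genes) and 0 had no overlap (0.657%). In this comparison edgeR called 0% of all genes, DESeq2 4 genes and limma-voom 1. Without the third 1 wk library the members' median was 0.12, and without the third 2 wk library it was 0.03.

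For any difference among the 4 groups, the edgeR adjusted p-value was 0.335 for H2-Ab1, 0.341 for H2-Aa and for H2-Eb1, 0.445 for Cd74 and 0.626 to 0.944 for the other 6 members. Of all genes 0.0124% were called in that test, and 8.73% had an unadjusted p-value under 0.05, as did the chains and Cd74. The spread between replicates, which includes counting error, set the precision. In the comparisons with sedentary the log2 standard error was 0.14 to 0.17 for the 6 more abundant members. It was 0.23 to 0.32 for H2-DMb2, H2-Oa, H2-Ob and Ciita. In the sedentary group counting alone would give H2-DMb2 a coefficient of variation of 11.2%, where 11.4% was seen. For H2-Oa it would give 16.7%, where 28.6% was seen.

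**Figure D3:**
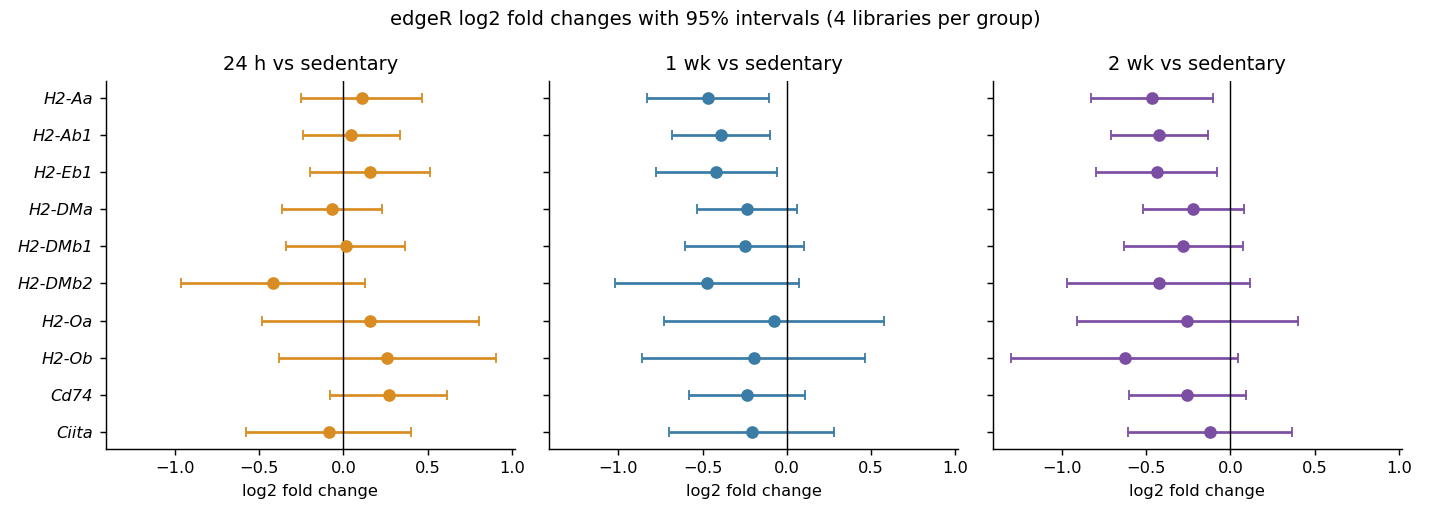
edgeR log2 fold changes of the 10 members against sedentary at 24 h, 1 wk and 2 wk, with 95% intervals, 4 libraries a group. At 1 wk and 2 wk all 10 points lie below 0, and only the intervals of H2-Aa, H2-Ab1 and H2-Eb1 leave out 0, before adjustment over all genes tested.

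The members' mean log2 difference from the sedentary mean was 0.18, -0.24, 0.12 and -0.06 in the sedentary libraries themselves and 0.38, -0.30, 0.05 and -0.06 at 24 h. It was -0.46, -0.48, 0.07 and -0.33 at 1 wk and -0.40, -0.22, -0.38 and -0.43 at 2 wk. All 4 libraries at 2 wk and 3 of 4 at 1 wk were below the sedentary mean, and the second sedentary library lay below the second 2 wk one.

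**Figure D4:**
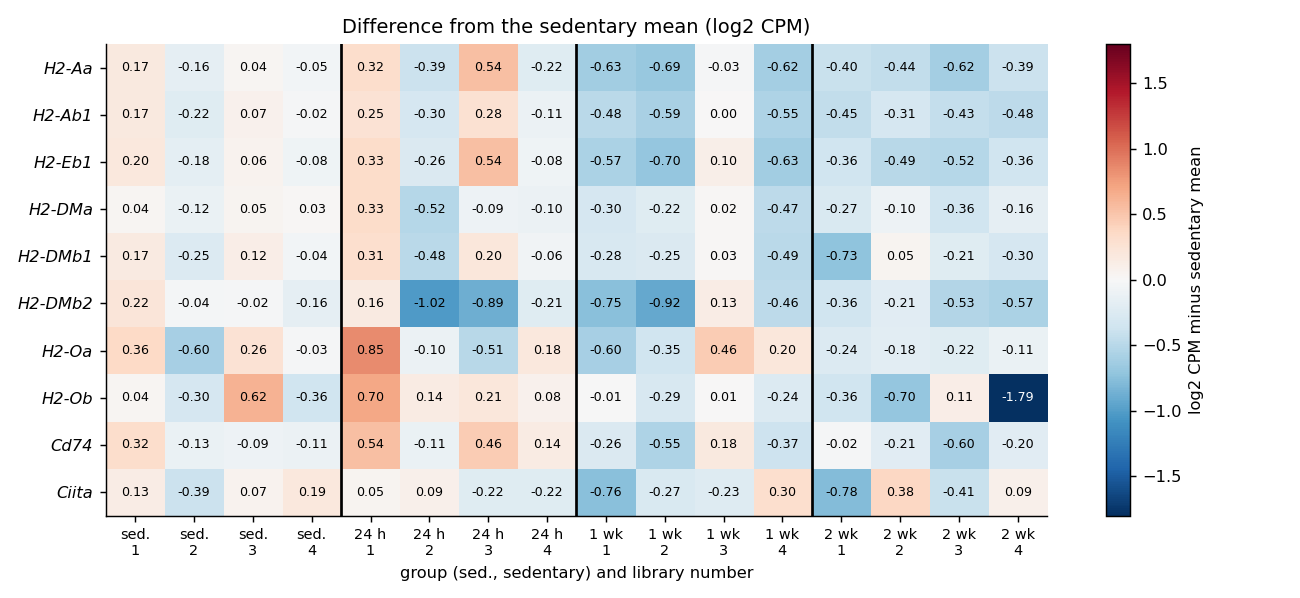
Difference of each member from its sedentary mean, in log2 CPM, in each of the 16 libraries (red above, blue below, black lines between groups). At 1 wk H2-Aa is below 0 in 4 of 4 libraries and H2-Ab1 and H2-Eb1 in 3 of 4, and all 3 are below 0 in 4 of 4 at 2 wk, and H2-Ob in the fourth 2 wk library is the lowest cell.

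The classical chains and Cd74 varied together across the 16 libraries. Their 6 pairs had Pearson's r of 0.867 to 0.986 and Spearman's rho of 0.859 to 0.985 in log2 CPM, with permutation p-values adjusted over 85 relations of at most 0.000283 for r and 0.000486 for rho. As deviations from group means the 6 values of r were 0.820 to 0.975, and 0.780 to 0.975 without the 2 libraries farthest from the median. The smallest permutation p possible was 1e-05. Libraries were permuted across groups, so differences between groups enter these p-values. The deviations from group means were given no p-value. Over all 45 pairs of members r had a median of 0.49, and after adjustment 17 pairs passed by r and 21 by rho. Ciita with the other 9 members had r from -0.12 to 0.49 and rho from -0.11 to 0.50, and none of the 9 passed (smallest adjusted permutation p = 0.107 for r and 0.0845 for rho). Against the mean of the other members, r was 0.94 for H2-Ab1, 0.87 for H2-Aa, 0.86 for H2-Eb1, 0.81 for H2-DMa and for H2-DMb1, 0.79 for Cd74, 0.62 for H2-Oa, 0.61 for H2-DMb2, 0.41 for H2-Ob and 0.26 for Ciita. The 4 members with the lowest of these values are also the 4 of lowest CPM per kilobase.

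**Figure D5:**
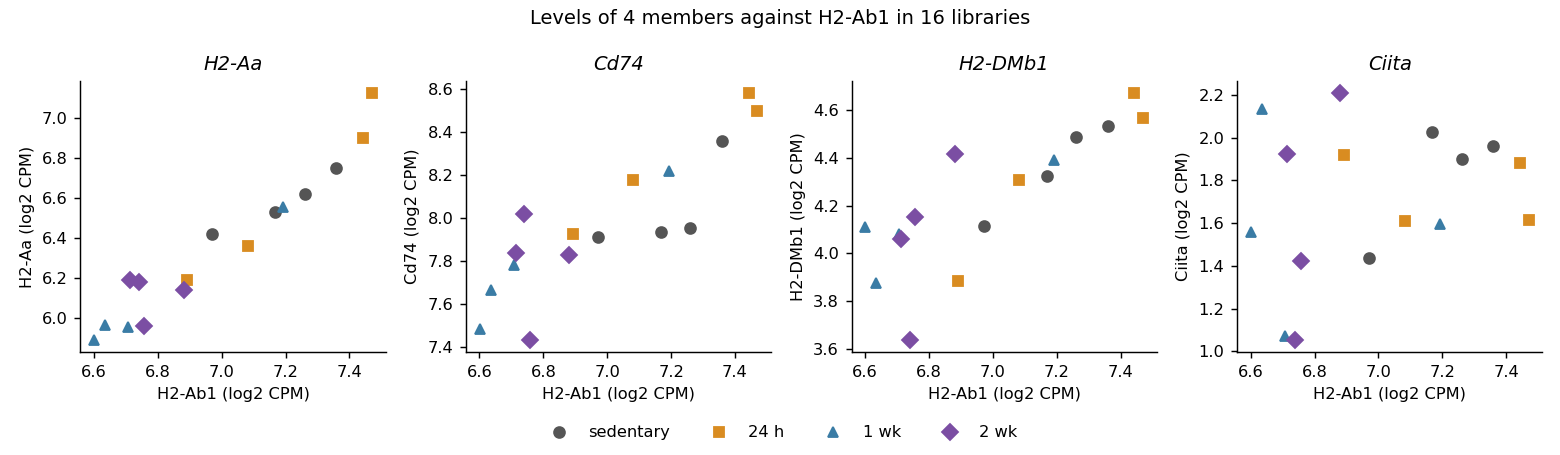
log2 CPM of H2-Aa, Cd74, H2-DMb1 and Ciita (vertical axes) against log2 CPM of H2-Ab1 (horizontal axes) in 16 libraries, with colour and shape giving the group. H2-Aa lies along a line with H2-Ab1, Cd74 and H2-DMb1 spread more around one, and Ciita shows none (r = 0.25).

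Ratios of the other chains and Cd74 to H2-Ab1 within a library are given next, since these genes varied together. The ratio of H2-Aa to H2-Ab1, as CPM per kilobase, ran from 0.619 to 0.845 over 16 libraries, with an SD of 0.11 in log2 where the 2 genes alone had 0.37 and 0.29. The ratio of H2-Eb1 to H2-Ab1 ran from 0.479 to 0.650 (log2 SD 0.11). The ratio of Cd74 to H2-Ab1 averaged 1.56 ± 0.155 (SD, n = 4) in sedentary cortex, 1.81 ± 0.0661 at 24 h, 1.73 ± 0.0973 at 1 wk and 1.75 ± 0.303 at 2 wk. At 24 h its lowest value, 1.76, lay above the sedentary maximum of 1.72, and the other exercised groups overlapped the sedentary one. Several ratios of members were formed, and no such separation was tested or set beside a share over all genes. The ratio of H2-DMb2 to H2-DMb1 also separated at 24 h, its highest value of 0.06955 lying just below the sedentary minimum of 0.06956. The ratio of Ciita to H2-Ab1 had a log2 SD of 0.40, more than Ciita's own 0.35.

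Of the other genes of the pathway, none passed edgeR's test in any of the 6 comparisons. Among 7 factors of the class II promoter, 6 were negative at 24 h, 2 at 1 wk and 2 at 2 wk, with medians of -0.02, 0.04 and 0.07. Creb1, which binds the X2 element, had log2 fold changes of -0.01, -0.33 and -0.02 at 24 h, 1 wk and 2 wk (SE 0.13). Those of Rfxap, a subunit of the X box factor RFX, were 0.25, 0.12 and 0.17 (SE 0.10), and those of Rfxank, another RFX subunit, -0.04, 0.09 and 0.07 (SE 0.08). Among 11 genes of processing and turnover, 6 were negative at 24 h, 6 at 1 wk and 10 at 2 wk, with medians of -0.03, -0.0070 and -0.07. Ctss, the cathepsin that cuts the invariant chain in antigen-presenting cells, had 0.31 ± 0.24 at 24 h, -0.59 ± 0.25 at 1 wk and -0.60 ± 0.25 at 2 wk (edgeR adjusted p = 0.752, 0.766 and 0.623). March1, a ubiquitin ligase that removes class II from the surface, had -0.54, -0.45 and -0.30 at the 3 times (SE 0.18), and Sppl2a, the protease that clears the invariant chain remnant, -0.28, -0.16 and -0.14 (SE 0.09). Their edgeR adjusted p at 24 h was 0.380 and 0.390.

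Interferon-gamma drives Ciita in many cells, and its own message had at most 8 counts in a library and was not tested. Of 8 tested genes of interferon-gamma signalling, 4 were negative at 24 h, 7 at 1 wk and 5 at 2 wk, with medians of -0.0075, -0.11 and -0.03. Those of smallest p were its receptor genes Ifngr2 (-0.03, -0.09 and -0.24 at the 3 times, SE 0.11) and Ifngr1 (0.13, -0.13 and -0.03, SE 0.11) and the factor Irf1 (0.02, -0.25 and -0.19, SE 0.18). Of 14 target genes, 9 were negative at 24 h, 13 at 1 wk and 4 at 2 wk, with medians of -0.06, -0.22 and 0.09. Gbp9, Gbp7 and Gbp5, guanylate-binding proteins, had -0.28, -0.29 and -0.08 at 24 h, -0.67 ± 0.24, -0.49 ± 0.27 and -0.51 ± 0.24 at 1 wk and -0.22 ± 0.23, 0.16 ± 0.26 and -0.26 ± 0.23 at 2 wk. The targets summed to 119.6 to 132.6 CPM in sedentary cortex, 108 to 159 at 24 h and 89.7 to 133.6 at 1 wk. At 2 wk they summed to 122, 198, 113 and 99.0 CPM, and the second library alone lay above the sedentary range. Of 18 class I presentation genes, 8 were negative at 24 h, 12 at 1 wk and 12 at 2 wk, with medians of 0.02, -0.12 and -0.08. H2-Q4, H2-D1 and Psmb8 (class I chains and an immunoproteasome subunit) had -0.16, 0.03 and 0.07 at 24 h, -0.45, -0.17 and -0.22 at 1 wk, and -0.31 ± 0.15, -0.18 ± 0.09 and -0.32 ± 0.15 at 2 wk. Of 4 tested costimulation genes, 3 were negative at 24 h, 3 at 1 wk and 4 at 2 wk, with medians of -0.24, -0.20 and -0.32. At the 3 times Cd40 had -0.54, -0.51 and -0.49 (SE 0.25), Cd83 -0.35, -0.15 and -0.34 (SE 0.22), Icosl -0.14, -0.25 and -0.29 (SE 0.15) and Cd86 0.33, 0.06 and -0.21 (SE 0.26).

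Markers of dendritic cells and macrophages, which carry class II, were mostly lower at 1 wk and 2 wk than in sedentary cortex, as the members were. Of 11 tested dendritic cell markers, 9 were negative at each of these times, with medians of -0.51 and -0.58 (-0.06 at 24 h). The dendritic cell list summed to 27.8 to 31.0 CPM in sedentary cortex, 27.9 to 34.4 at 24 h, 24.4 to 31.6 at 1 wk and 24.4 to 26.7 at 2 wk, with no marker at 0 in all libraries. Of its most abundant genes, Irf8 had 0.05, 0.06 and -0.01 at the 3 times (SE 0.12), Zbtb46 -0.09, -0.05 and 0.00057 (SE at most 0.17) and Mgl2 0.10, -0.51 and -0.58 (SE at most 0.14). Of 11 tested macrophage markers, 9 were positive at 24 h, and 10 and 9 negative at 1 wk and 2 wk, with medians of 0.16, -0.35 and -0.28. Their sum was 170.4 to 196 CPM in sedentary cortex, 174 to 210.3 at 24 h, 148 to 179 at 1 wk and 151 to 183 at 2 wk. Its most abundant genes were Csf1r, with -0.05, -0.15 and -0.14 (SE 0.12), Mertk, with -0.11, -0.04 and 0.10 (SE 0.12), and C1qa, with 0.16, -0.34 and -0.44 (SE 0.22). No gene of either list passed edgeR's test, and their part in the members' values was not tested.

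B cells carry class II and H2-O as well. All 8 tested B cell markers were negative at 24 h, 7 at 1 wk and 6 at 2 wk, with medians of -0.58, -0.38 and -0.28. They summed to 3.84 to 5.42 CPM in sedentary cortex, 2.24 to 4.67 at 24 h, 2.66 to 5.13 at 1 wk and 3.54 to 5.06 at 2 wk, and at the 3 times Cd79b had -0.10, 0.01 and 0.03 (SE at most 0.27), Cr2 -0.52, -0.26 and 0.70 (SE at most 0.30) and Cd79a -0.04, -0.39 and -0.40 (SE at most 0.38). Most members were positive at 24 h, but the sign of their median rested on single libraries. No B cell marker and no member passed edgeR's test there. Of 6 monocyte markers 3 were negative at each time (medians 0.01, 0.04 and 0.13, sums of 13.5 to 15.9 CPM in sedentary cortex, 11.8 to 15.3 at 24 h, 10.1 to 15.7 at 1 wk and 10.7 to 14.4 at 2 wk). The most abundant monocyte markers were Plac8, with -0.04, -0.15 and -0.28 at the 3 times (SE 0.13), Ccr2, with -0.14, -0.70 and -0.83 (SE at most 0.24), and S100a9, with 0.36, 0.22 and 0.70 (SE at most 0.57). T cells, of which the CD4+ ones read class II, had 3 of 11 markers negative at 24 h, 9 at 1 wk and 11 at 2 wk (medians 0.11, -0.29 and -0.37, sums of 6.76 to 8.52 CPM in sedentary cortex, 5.93 to 12.8 at 24 h, 4.68 to 6.69 at 1 wk and 4.92 to 6.13 at 2 wk). The list is of T cells in general, not of CD4+ ones alone. The most abundant of these, Cd8a, Trac and Lck, had -0.10, 0.13 and 0.24 at 24 h, -0.28, -0.26 and -0.40 at 1 wk, and -0.30, -0.30 and -0.46 at 2 wk (SE at most 0.30). All 10 endothelial markers were negative at 1 wk and at 2 wk, with medians of -0.37 and -0.26, and summed to 436 to 511.5 CPM in sedentary cortex, 381 to 549 at 24 h, 331 to 409 at 1 wk and 318 to 495 at 2 wk. The most abundant, Plvap, Emcn and Pecam1, had -0.39, -0.45 and -0.35 at 1 wk and -0.29, -0.42 and -0.23 at 2 wk (SE at most 0.15). Proximal tubule markers had medians of -0.21, -0.05 and 0.07 and podocyte markers of 0.11, 0.03 and 0.07 at the 3 times. No marker of any of these lists was at 0 in all libraries. The part of these cell types in the members' values was not tested.

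Across the 16 libraries, members were also set beside the log2 of the summed CPM of the dendritic cell, macrophage, monocyte and B cell lists. These belong to the same 85 relations. A sum weighs its abundant genes most. In sedentary cortex Irf8 averaged 15.35 CPM of the dendritic cell sum of 29.89, and Plac8 10.39 of the monocyte sum of 14.77. Csf1r and Mertk averaged 66.72 and 39.94 CPM of the macrophage sum of 184.2. The T cell, endothelial, tubule and podocyte lists were not set beside the members. Whether the relations are particular to the lists used was therefore not tested. Here too libraries were permuted across groups, so differences between groups enter the p-values. After adjustment the dendritic cell list passed with 5 of 10 members by r and 6 by rho. The macrophage list passed with 4 and 5, the monocyte list with 4 and 5, and the B cell list with 0 and 2. With the B cell list r was 0.02 for H2-Aa, 0.06 for H2-Ab1 and 0.02 for H2-Eb1. Without the 2 libraries farthest from the B cell median it was 0.61, 0.57 and 0.63. Over all 10 members it then ran from 0.05 to 0.70. As deviations from group means r over the 10 members ran from 0.13 to 0.74 with the dendritic cell list and -0.32 to 0.68 with the macrophage list. It ran from -0.27 to 0.65 with the monocyte list and 0.13 to 0.79 with the B cell list. H2-Ab1 with the dendritic cell list had r = 0.83 and rho = 0.80 (adjusted permutation p = 0.0011 and 0.0017), r = 0.67 as deviations from group means and 0.75 without the 2 libraries farthest from that list's median. H2-Aa with the macrophage list had r = 0.83 and rho = 0.82 (adjusted permutation p = 0.000486 and 0.00155), 0.68 within groups and 0.72 without the 2 farthest from the macrophage median. Of the 10 members H2-Oa had the highest r with the B cell list, 0.58, with rho 0.66 (adjusted permutation p = 0.0529 and 0.0228). It had 0.79 within groups and 0.70 without the 2 farthest from the B cell median. Its r with the dendritic cell list was higher, 0.69, with rho 0.71 (adjusted permutation p = 0.0119 and 0.0110). That r was 0.74 within groups and 0.54 without the 2 farthest from the dendritic cell median.

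Of 12137 other genes of sufficient level, those most like the mean standardized level of the members over 16 libraries were the class I gene H2-D1 (r = 0.94), the immunoproteasome gene Psmb8 (0.94), the leukocyte surface gene Cd52 (0.92), the B cell coreceptor gene Cd72 (0.90), the integrin gene Itgax of CD11c+ cells (0.90), the class I gene H2-K1 (0.90), the leukocyte GTPase gene Rac2 (0.90), the leukocyte actin regulator Coro1a (0.88), the chemokine receptor gene Cx3cr1 (0.88) and the phagocyte oxidase subunit gene Ncf1 (0.88). As deviations from group means the first of these, H2-D1, had r = 0.90. These 10 are the highest of many and are given as a description, from libraries that share their depth and composition.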

How the data were processed

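Libraries were made from polyadenylated RNA of frozen cortex with a kit that keeps the strand, per the labels' protocols. The deposited values are raw counts per gene, which the authors made with HTSeq 0.10.0 after FastQC 0.10.1. The submitters' processing notes name these tools and the build GRCm38 (mm10). Aligner, gene annotation and the counting's strand option were not given in the sources used here. Of the table's columns, 16 were joined to samples by name, and 8 that match no sample were not used.

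Symbols, positions and transcript lengths came from GENCODE M21 by Ensembl identifier (94.0% of identifiers matched). Genes were filtered with filterByExpr, scaled by TMM and tested with edgeR 4.0.16 (robust quasi-likelihood, all 16 libraries in 1 fit, no covariates), with Benjamini-Hochberg adjustment over 16126 genes and a threshold of 0.05. The SE of a log2 fold change was derived from its F statistic. Log2 CPM used a prior count of 2. The fit was tested on simulated counts with changes larger than those of any member. How often it would call changes of the members' size was not tested. Alternatives were DESeq2 1.42.0, limma 3.58.1 (voom with quality weights), RLE size factors, other filters, only the 2 groups compared, the replicate number as a block, and leaving out libraries. Motif and sequence work used Python 3.11.15 and Biopython 1.88.

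All 10 members are described whatever their p-value. Of each longer pathway list the 3 genes of smallest p over the 4 groups are named, of the immune and endothelial marker lists the 3 most abundant, and the 10 genes most correlated with the members. The members and lists were chosen with earlier results of these data known. The labels number the libraries 1 to 4 in each group but do not call them separate animals. The p-values therefore rest on library-to-library spread that may be technical. No 2 libraries of a group were alike within sampling noise.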

Additional observations from a re-analysis of the deposited data

Results flagged for a closer look

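Within each group of 4 libraries the highest and the lowest value of each member were checked for standing apart from the other 3 (gap to the nearest, over the whole range, above Dixon's 95% critical value for 4 values). Of 40 such checks 5 were positive, and chance gives about 1 in 20. In the third 1 wk library, H2-Aa at 93.91 CPM (the next at 62.39), H2-Ab1 at 146.3 CPM (the next at 104.4) and H2-Eb1 at 117.5 CPM (the next at 73.59) stood above the rest of the group, and these 3 genes vary together. In the first sedentary library Cd74, at 327.8 CPM, stood above the next at 247.8. In the second sedentary library H2-DMa, at 9.942 CPM, stood below the next at 10.99.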

How the results depend on the processing

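No member was called in any comparison under any of the settings tried. Of 924 log2 fold changes of members under an alternative, 847 kept their sign and 77 did not, the latter all from values of at most 0.26 in size; none gained or lost a call, and the smallest adjusted p was 0.0995 (the chains at 1 wk against 24 h without the third 1 wk library). The cause of each difference between settings was not tested. The depth limits H2-Ob, H2-Oa and H2-DMb2, whose counts in a library were as low as 11, 20 and 31.

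Counts of all genes called depended on the tool. With DESeq2 they were 86 (24 h), 15 (1 wk) and 34 (2 wk) against sedentary, 59 and 39 at 1 wk and 2 wk against 24 h, 4 at 2 wk against 1 wk and 163 for any difference. With limma-voom they were 49, 6 and 6 against sedentary, 1 at 2 wk against 1 wk and 33 for any difference. Without a filter they were 9 (24 h) and 5 (2 wk) against sedentary, 8 at 2 wk against 24 h and 10 for any difference, and with a filter of 1 CPM in 4 libraries 4 at 2 wk against 24 h. In fits of only the 2 groups compared they were 28 (24 h) and 2 (2 wk) against sedentary. With the replicate block they were 5 at 2 wk against sedentary, 11 at 2 wk against 24 h and 5 for any difference, with 0 members. The replicate numbers share only a number: over 24 same-numbered pairs of libraries the deviations correlated at 0.057 on average (-0.24 to 0.37), 8 pairs passed 0.1, and 5 of 16 libraries correlated best with their own number.

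Leaving out 1 library at a time, genes called ranged from 0 to 2 (1 wk against 24 h), 0 to 1 (1 wk against sedentary), 0 to 7 (2 wk against 24 h), 0 to 8 (2 wk against sedentary) and 0 to 5 (any difference). The members' median log2 fold change ranged from -0.06 to 0.20 (24 h), -0.37 to -0.21 (1 wk) and -0.44 to -0.28 (2 wk) against sedentary, from -0.47 to -0.22 and -0.54 to -0.29 at 1 wk and 2 wk against 24 h, and from -0.09 to 0.12 at 2 wk against 1 wk. For members with a change of sign, the ranges at 24 h against sedentary were -0.0681 to 0.24 for H2-Aa, -0.0387 to 0.15 for H2-Ab1, -0.23 to 0.0568 for H2-DMa, -0.0949 to 0.15 for H2-DMb1 and -0.18 to 0.34 for H2-Oa. They were -0.27 to 0.0836 for H2-Oa and -0.31 to 0.0682 for H2-Ob at 1 wk, and -0.34 to 0.0438 for Ciita at 2 wk, against sedentary. At 1 wk against 24 h they were -0.34 to 0.0294 for Ciita, -0.31 to 0.21 for H2-DMb2 and -0.44 to 0.10 for H2-Oa. At 2 wk against 24 h they were -0.25 to 0.13 for Ciita, -0.28 to 0.0072 for H2-DMa and -0.16 to 0.26 for H2-DMb2. At 2 wk against 1 wk they were -0.11 to 0.15 for Cd74, -0.13 to 0.29 for Ciita, -0.0642 to 0.18 for H2-Aa, -0.0959 to 0.13 for H2-Ab1, -0.0662 to 0.11 for H2-DMa, -0.16 to 0.0943 for H2-DMb1, -0.0878 to 0.31 for H2-DMb2, -0.10 to 0.20 for H2-Eb1 and -0.34 to 0.0200 for H2-Oa.

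The other changes of sign were near 0. H2-Aa at 2 wk against 1 wk was -0.0047 with RLE size factors, -0.0050 with DESeq2, -0.0087 with the 1 CPM filter and -0.0069 with only the 2 groups. With limma-voom H2-Aa was -0.0073 and H2-DMb1 -0.0198 at 24 h against sedentary, H2-DMb2 0.0083 at 2 wk against 24 h, and H2-Eb1 0.0801, H2-Oa 0.0320 and Cd74 0.0733 at 2 wk against 1 wk. With the replicate block H2-DMb2 was 0.0304 at 2 wk against 24 h and H2-Eb1 0.0191 at 2 wk against 1 wk.

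Leaving out the first and the third 24 h libraries together was chosen after seeing the data. The members' median was then -0.19 at 24 h against sedentary and -0.19 at 2 wk against 24 h, where 0 genes were called. H2-Aa was -0.31, H2-Ab1 -0.21, H2-Eb1 -0.18, H2-DMb1 -0.26 and H2-Oa -0.0028 at 24 h against sedentary. H2-DMa was 0.0600, H2-DMb1 0.0140 and H2-DMb2 0.10 at 1 wk against 24 h, and H2-DMa 0.0783 and H2-DMb2 0.15 at 2 wk against 24 h.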
